A study of Mus musculus with 8 samples.

Results

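Heparan sulfate proteoglycans and the enzymes that build and trim their sugar chains were described in sorted mouse limb bud cells, zone of polarizing activity (ZPA) against the rest of the limb. A gene belonged to the set when a probe set of the array with a single gene symbol named a glypican (Gpc1 to Gpc6), a syndecan (Sdc1 to Sdc4), perlecan (Hspg2), an exostosin-family enzyme (Ext or Extl), an N-deacetylase/N-sulfotransferase (Ndst), the epimerase Glce, a 2-O-, 3-O- or 6-O-sulfotransferase (Hs2st, Hs3st, Hs6st) or an extracellular sulfatase (Sulf). This gave 32 genes with 72 probe sets, of 18193 genes with a probe set of 1 symbol. Ndst1 and Hs3st5 had no probe set of 1 symbol, so they were not assessed. Of several probe sets of a gene, the one shown was chosen by its measured level, the highest mean of log2(intensity + 16) over the arrays, and that level is given as a description only. Both ZPA and non-ZPA cells came from limb buds of E10.5 embryos heterozygous for the Shhgfpcre allele, which places a green fluorescent protein and Cre cassette at Shh. Single cells from the limbs went through a fluorescence sorter, where GFP-positive cells were kept as ZPA and GFP-negative cells, which hold the other cell types of the limb, as non-ZPA. The labels give neither the sex of the embryos nor which limbs were taken, nor whether each sample had its own litter or sort, so p-values reflect the spread of these samples alone, which may be technical. The study held 4 samples a group, but ZPA replicates 1 and 2 held the same values within 0.5 intensity units and count once as ZPA array 1+2, which leaves 3 ZPA and 4 non-ZPA arrays. The limb buds are mixed tissue, and in sorted pools fewer cells of a type and less RNA per cell cannot be told apart.

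Heparan sulfate is a long sugar chain carried by a small set of core proteins: glypicans are held to the cell surface by a lipid anchor, syndecans span the membrane, and perlecan lies in the matrix. Exostosins polymerise the chain, and Ndst enzymes, Glce and the sulfotransferases then modify it in stretches, while Sulf enzymes remove 6-O-sulfate outside the cell. The chains bind Hedgehog, fibroblast growth factor, bone morphogenetic protein and Wnt ligands, and in the limb they shape how far and how strongly such signals act.

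Some facts of the whole series bear on these values. Shh, whose reporter defined the sort, had intensities of 6226, 12148 and 11191 on ZPA arrays 1+2, 3 and 4, against 319, 203, 868 and 1085 on non-ZPA arrays 1 to 4. Every ZPA value was above every non-ZPA value. The arrays fall into 2 runs by title number and, where recorded, scan day: run 1 holds ZPA array 1+2 and non-ZPA arrays 1 and 2, and run 2 holds arrays 3 and 4 of both groups. The scan day of 1 deposited sample was not recorded, so its run rests on the title number alone. The 3 prime probe set of Actb was 21.6 times as bright as its 5 prime one on ZPA array 4 and 2.04 to 5.37 times on the rest. For Gapdh this ratio was 1.21, 2.56 and 9.02 on ZPA arrays 1+2, 3 and 4 and 3.67 to 5.77 on non-ZPA arrays. Target was amplified in 2 rounds, so these ratios do not measure RNA integrity alone. The summed signal of the bioB, bioC, bioD and cre spike-ins was 8.16, 1.41 and 5.31 times the non-ZPA mean on ZPA arrays 1+2, 3 and 4, against 0.867 to 1.12 times on non-ZPA arrays. Among marker genes of other cells, 3 of 5 tested muscle precursor genes, 2 of 10 of surface ectoderm, 2 of 6 erythroid genes and 1 of 4 of condensing cartilage fell in ZPA cells. Summed intensities of muscle precursor genes were 241 to 568 on ZPA and 1083 to 3329 on non-ZPA arrays, and those of ectoderm genes 934 to 2168 on ZPA and 3746 to 7430 on non-ZPA arrays. Erythroid genes summed to 18439 to 58272 on ZPA and 37404 to 54292 on non-ZPA arrays, and cartilage genes to 711 to 1380 on ZPA and 3020 to 6116 on non-ZPA arrays. No gene of the lists for apical ridge, endothelium, leukocytes, neural crest and neurons, or pericytes and smooth muscle passed the test by limma. Leukocyte genes summed to 1324, 655 and 13250.0 on ZPA arrays 1+2, 3 and 4 and to 949 to 1655 on non-ZPA arrays, and pericyte and smooth muscle genes to 3885, 4390 and 12854 on the ZPA arrays and 2744 to 6366 on non-ZPA arrays, so that ZPA array 4 stood apart in both. Without ZPA array 4, the same 4 members were called as with it. Myf5 was the only tested marker at or under the filter level on every ZPA array. The part of these cells in the results below was not tested.

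The promoters of 4 members are shown first: Hs3st3a1 and Hs3st3b1, neighbours that both fell, and Gpc3, which fell, with its neighbour Gpc4, which did not pass the test. Hs3st3a1 and Hs3st3b1 lie on chromosome 11 with 1 protein-coding gene, Cox10, annotated between them, and Gpc3 and Gpc4 lie next to each other on the X chromosome with 0 protein-coding genes between. The sequences are the 250 bases before the annotated start, 5′ to 3′ on the gene's strand, from RefSeq on GRCm38.p6, and capitals mark GC boxes (GGGCGG on either strand).
Hs3st3a1, chr11:64435082-64435331, plus strand: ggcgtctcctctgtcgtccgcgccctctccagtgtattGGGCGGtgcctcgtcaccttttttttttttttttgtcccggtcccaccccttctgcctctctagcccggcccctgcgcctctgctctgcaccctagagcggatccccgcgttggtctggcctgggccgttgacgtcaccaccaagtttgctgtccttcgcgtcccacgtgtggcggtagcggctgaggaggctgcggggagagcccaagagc
Hs3st3b1, chr11:63922285-63922534, minus strand: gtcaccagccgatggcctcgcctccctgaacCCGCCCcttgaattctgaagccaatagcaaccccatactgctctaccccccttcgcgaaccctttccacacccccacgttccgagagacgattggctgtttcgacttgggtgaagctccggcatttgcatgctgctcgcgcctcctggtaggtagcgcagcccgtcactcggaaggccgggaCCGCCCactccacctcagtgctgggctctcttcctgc
Gpc3, chrX:52613975-52614224, minus strand: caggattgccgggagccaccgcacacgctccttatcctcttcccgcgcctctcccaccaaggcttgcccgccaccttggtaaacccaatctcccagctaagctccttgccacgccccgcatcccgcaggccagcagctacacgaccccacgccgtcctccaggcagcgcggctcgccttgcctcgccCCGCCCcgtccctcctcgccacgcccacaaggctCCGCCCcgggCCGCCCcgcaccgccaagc
Gpc4, chrX:52164924-52165173, minus strand: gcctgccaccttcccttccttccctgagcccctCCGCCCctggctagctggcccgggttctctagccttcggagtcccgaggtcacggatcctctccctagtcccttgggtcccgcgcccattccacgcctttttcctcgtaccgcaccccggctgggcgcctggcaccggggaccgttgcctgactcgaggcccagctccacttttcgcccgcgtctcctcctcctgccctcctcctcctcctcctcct
Each of the 4 promoters held at least 1 GC box, 1 in Hs3st3a1, 2 in Hs3st3b1, 3 in Gpc3 and 1 in Gpc4, where 32.7% of 32851 promoters of the same length held one. GC content was 64%, 62.4%, 71.6% and 68.4% in the same order, against a median of 52.4% over all promoters. A TATAAA sequence, on either strand, was in 0 of the 4 and in 12.4% of all, and CANNTG was found once each in Hs3st3a1 and Hs3st3b1 and in 66.2% of all. TGGGTGGTC, a consensus for Gli factors, was in 0 of the 4 on either strand and in 0.225% of all. Promoters were found for 24 of the 32 genes.

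The comparison of ZPA with non-ZPA cells asked which of these genes differed between the source of Shh and the rest of the limb. Hs3st3a1 and Hs3st3b1, which add the rare 3-O-sulfate to the chain, and the glypicans Gpc3 and Gpc6 were lower in ZPA cells. Of the 32 genes, 30 lay above the filter level (the 40th percentile of the array in at least 4 of the 8 deposited columns) and were tested. Of these, 4 fell and 0 rose at an adjusted p under 0.05 by limma, adjusted over all 13341 genes tested. The share that fell was 13.3% of the members and 2.02% of all genes, while 0.427% of all genes rose and 2.44% passed in either direction. Without adjustment, 6 members were lower and 1 was higher at p under 0.05, together 23.3% against 19.3% of all genes. In 6 members the arrays of the groups did not overlap, 5 lower and 1 higher, which is 20.0% against 18.3% of all genes (10.6% lower and 7.77% higher). The median log2 fold change, ZPA minus non-ZPA, was -0.27 over the 30 members and -0.0037 over all genes.

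**Figure D1:**
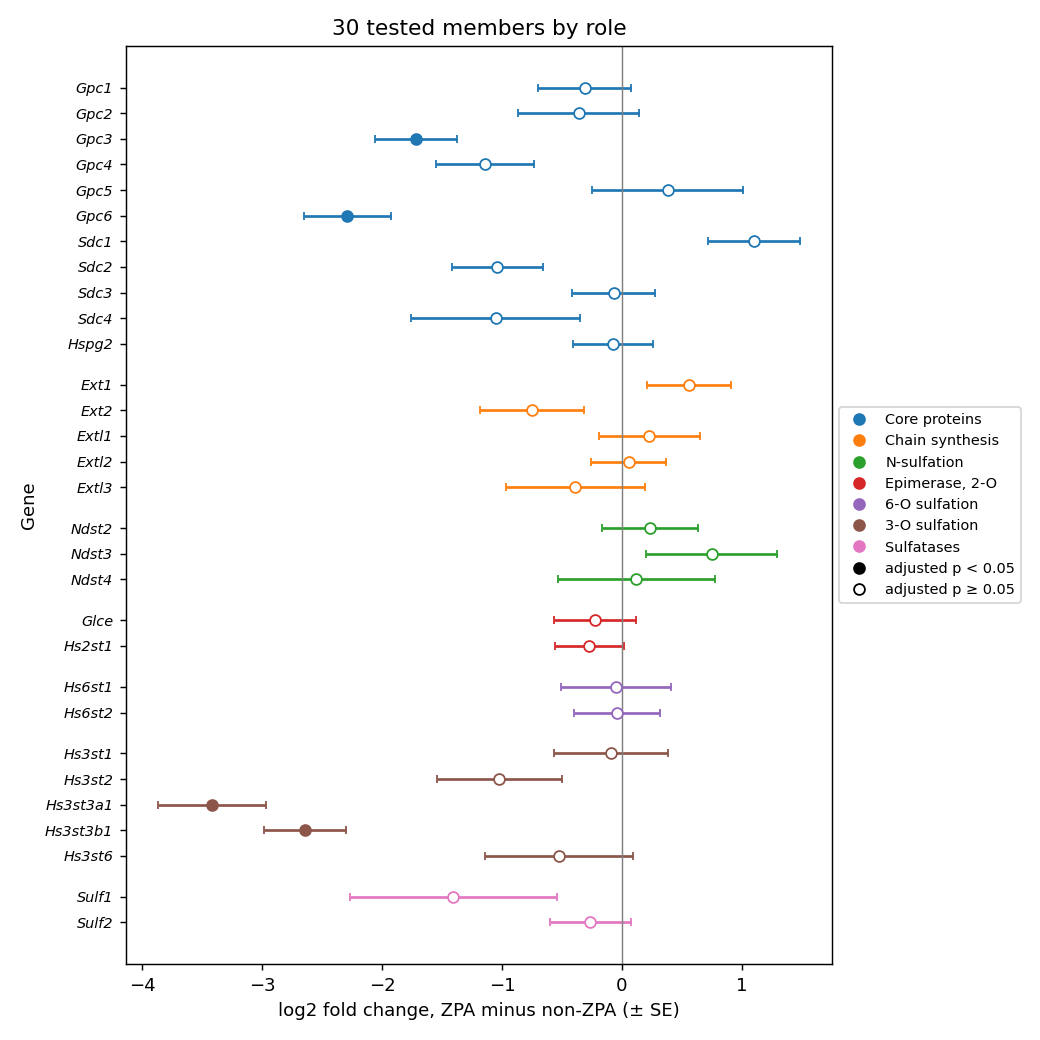
Log2 fold change, ZPA minus non-ZPA, with its standard error (x axis) for the 30 tested genes (y axis), coloured by role. Filled points passed at an adjusted p under 0.05: Gpc3, Gpc6, Hs3st3a1 and Hs3st3b1, at -1.72, -2.29, -3.42 and -2.64.

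A pair of 3-O-sulfotransferases, enzymes that act late on the chain and create binding sites for particular proteins, fell in ZPA cells. Hs3st3a1 had intensities of 7.19, 8.8 and 18.1 on ZPA arrays 1+2, 3 and 4, against 232, 318, 293 and 254 on non-ZPA arrays 1 to 4. All 3 ZPA values lay below the filter level of their array (50.8 to 91.9), and all 4 non-ZPA values above it. The log2 fold change was -3.42 ± 0.45 (SE, adjusted p = 0.00304), but the ZPA level is not shown to be above background, so this size is not a measured one. Set against the filter level of the ZPA arrays, Hs3st3a1 was at least 3.75-fold lower in ZPA cells. It met the filter only through the non-ZPA arrays, and was also called when all genes were tested without a filter (adjusted p = 0.00391). The other 3 genes that fell were above the filter level on all 7 arrays.

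Hs3st3b1, the paralog that makes the same kind of 3-O-sulfated site, had intensities of 179, 222 and 116 on the ZPA arrays and 1114, 1470, 1169 and 848 on the non-ZPA arrays. All 7 values were above the filter level, and the highest ZPA value was below the lowest non-ZPA value by a wide margin. The means were 172 ± 53.2 in ZPA and 1150.2 ± 255 in non-ZPA cells (SD, n = 3 and n = 4), with a log2 fold change of -2.64 ± 0.34, or 6.25-fold lower (adjusted p = 0.00266). The other 3 tested probe sets of Hs3st3b1 had log2 fold changes of 0.58, -0.08 and 0.71 with none called, and their intensities ran from 11.4 to 296 over all arrays. With the median over the 4 probe sets in place of the brightest, the gene was at 0.23 (adjusted p = 0.844), so this call rests on 1 probe set. The fold changes in each run taken alone were -2.73 and -2.51 for Hs3st3b1 and -3.64 and -3.31 for Hs3st3a1. Cox10, the gene annotated between them, was at 0.55 ± 0.36 (adjusted p = 0.438).

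The other members of this family did not pass the test. Hs3st2 was at -1.02 ± 0.52 (adjusted p = 0.317), with 266, 48.9 and 62.6 on the ZPA arrays and 146 to 274 on the non-ZPA arrays. Its ZPA array of run 1 thus lay among the non-ZPA values, and without that array Hs3st2 passed as lower (-1.68, adjusted p = 0.0264), as it did with array weights (-1.53, adjusted p = 0.0431). On ZPA arrays 3 and 4 Hs3st2 lay under the filter level (50.8 and 82.2), so the size without array 1+2 is not a measured one. The fit without array 1+2 and that with array weights called 1035 and 849 of 13341 genes as lower, against 269 in the main fit. The other tested probe set of Hs3st2 was at -0.36 (adjusted p = 0.809 over all probe sets). Hs3st6 was at -0.52 ± 0.62 and Hs3st1, which makes the site that antithrombin binds, at -0.09 ± 0.48. Hs3st4 was not tested: it lay above the filter level on 1 of 7 arrays, with 15.2, 9.0 and 148 in ZPA and 12 to 54.9 in non-ZPA cells.

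Of the 6 glypicans, Gpc3 and Gpc6 fell. Gpc3, mutated in Simpson-Golabi-Behmel overgrowth and known as an inhibitor of Hedgehog signalling, had intensities of 5213, 2765 and 1922 on the ZPA arrays and 9617, 10641, 11205 and 8736 on the non-ZPA arrays. The groups did not overlap, and the ZPA array of run 1 was the closest to the non-ZPA arrays. The log2 fold change was -1.72 ± 0.34, or 3.29-fold lower (adjusted p = 0.0234), with means of 3300.1 ± 1709 and 10050.1 ± 1095 (SD, n = 3 in ZPA and n = 4 in non-ZPA). Leaving out ZPA array 3 or any 1 of the non-ZPA arrays ended the call (adjusted p from 0.0632 to 0.104), with a log2 fold change between -1.65 and -1.78 in these fits. The size was -0.95 within run 1 and -2.09 within run 2, a difference of -1.14 ± 0.46 that did not pass (adjusted p = 0.190).

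Gpc4, the neighbour of Gpc3, had 451, 226 and 729.1 on the ZPA arrays and 1241, 1226, 729.2 and 735 on the non-ZPA arrays. The groups only just failed to overlap, since ZPA array 4 and non-ZPA array 3 lay 0.1 intensity units apart. The log2 fold change of -1.14 ± 0.41 did not pass (adjusted p = 0.155). Gpc4 was called as lower with array weights (-1.70, adjusted p = 0.0123), in a fit that called 849 of 13341 genes as lower. In run 1 alone, with its single ZPA array, Gpc4 was at -1.42. A second probe set of Gpc4 had 34.3, 40.2 and 16.4 in ZPA cells, under the filter level each time, and 87.7 to 167 in non-ZPA cells. It met the filter only through the non-ZPA arrays and did not pass (adjusted p = 0.103 over all probe sets). Set against the filter level, it was at least 1.81-fold lower in ZPA cells on average over the arrays. Its lowest non-ZPA value, 87.7, lay under the level of ZPA array 1+2 (91.9).

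Gpc6, mutated in human omodysplasia, a condition of short limbs, had 199, 363 and 321 on the ZPA arrays and 1112, 1083, 2259 and 1669 on the non-ZPA arrays. No ZPA value came near the non-ZPA range. The log2 fold change was -2.29 ± 0.37, or 4.89-fold lower (adjusted p = 0.00773), with means of 294 ± 85.0 and 1531 ± 555 (SD, n = 3 in ZPA and n = 4 in non-ZPA), and it was -2.37 within run 1 and -2.45 within run 2. The 4 other tested probe sets of Gpc6 did not pass and had both signs, at -0.63, -1.26, 0.54 and 0.24. The one at -1.26 also had groups that did not overlap, with 162 to 324.5 in ZPA and 390.5 to 900.2 in non-ZPA cells, and with the run as a block it passed (-1.38, adjusted p = 0.0487 over all probe sets, of which 2.99% passed in that fit). With the median over the 5 probe sets, Gpc6 was at -0.69 (adjusted p = 0.290).

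The remaining glypicans did not differ beyond their spread. Gpc1 was at -0.31 ± 0.39, Gpc2, a glypican of the developing nervous system, at -0.36 ± 0.51, and Gpc5 at 0.38 ± 0.63, with adjusted p from 0.713 to 0.792. Gpc1 ran from 899 to 2182 in ZPA and from 1116 to 2325 in non-ZPA cells, so the ranges nearly coincided. Gpc5, which lies next to Gpc6 on chromosome 14, was above the filter level on only 2 of 3 ZPA and 2 of 4 non-ZPA arrays.

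**Figure D2:**
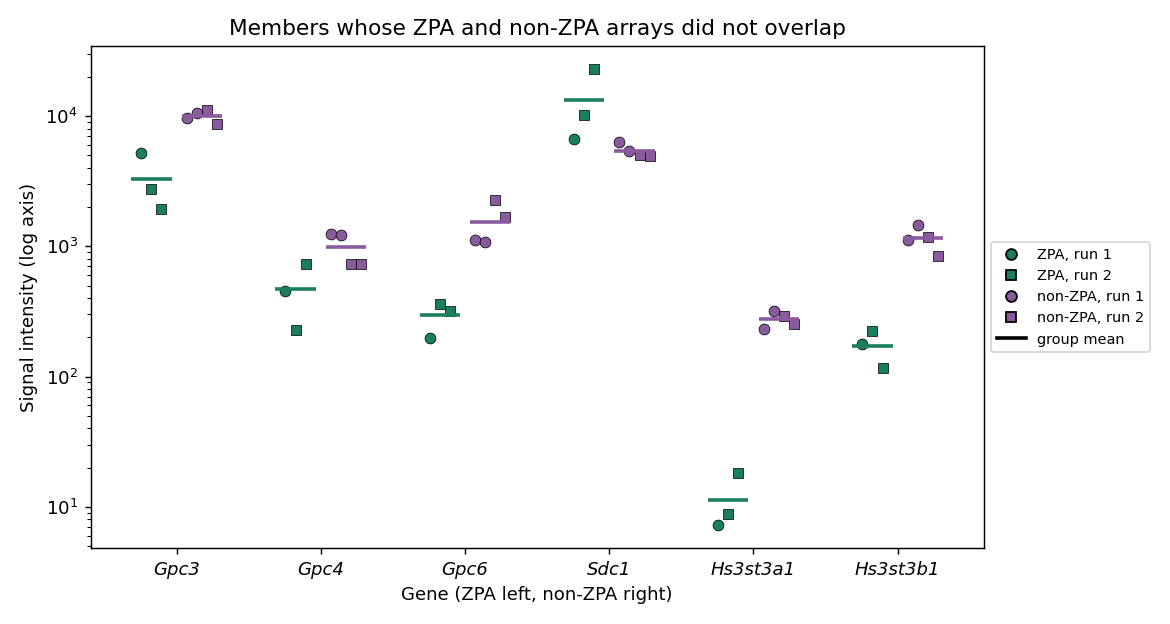
Signal intensity on each array (y axis, log scale) for the 6 genes whose ZPA (left, green) and non-ZPA (right, purple) arrays did not overlap. Circles are run 1, squares run 2, and bars the mean of each group, for example 172 and 1150.2 for Hs3st3b1 and 13305 and 5427 for Sdc1.

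Among the syndecans, Sdc1, best known from epithelia and condensing mesenchyme, was the member with the most positive log2 fold change, but its probe sets gave opposite signs. The brightest had 6667, 10164 and 23086 on the ZPA arrays and 6349, 5440, 5027 and 4894 on the non-ZPA arrays (log2 fold change 1.10 ± 0.38, adjusted p = 0.139). The groups did not overlap, and ZPA array 4, the array with the high Actb ratio, was the highest. This probe set passed as higher without ZPA array 1+2 (1.5, adjusted p = 0.00955) and with array weights. Those fits called 690 and 384 of 13341 genes as higher, against 57 in the main fit. The other tested probe sets of Sdc1 were at -0.65 ± 0.32 and -0.59 ± 0.33, with 1412, 2417 and 3014 in ZPA cells and 2980 to 4070 in non-ZPA cells for the first of them. The suffix of the brightest set (_x_at) is the array maker's mark for probes that may bind other transcripts, so the direction of Sdc1 was not settled. The brightest probe sets of Hs3st2 and Sulf2 bear the same suffix.

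Sdc4, a syndecan of focal adhesions, had 2 tested probe sets, both lower on average in ZPA cells, of which 1 passed. The brightest had 404, 81.7 and 114 in ZPA cells and 815, 806, 161 and 127 in non-ZPA cells and did not pass (-1.05 ± 0.70, adjusted p = 0.449). The other had 36.1, 15.9 and 80.6 in ZPA cells, under the filter level each time, and 559, 760, 493 and 354 in non-ZPA cells. It met the filter only through the non-ZPA arrays and, set against the filter level, was at least 7.18-fold lower in ZPA cells. Its fitted log2 fold change was -3.31 ± 0.45 (adjusted p = 0.00386, over the 27816 probe sets tested), one of 5 probe sets of members past the test in that fit, and the only one that was not its gene's brightest. Of all probe sets 1.74% passed there. Sdc2 was at -1.04 ± 0.38 (adjusted p = 0.157), with 663, 415 and 265 in ZPA cells and 602, 1052, 832 and 1117 in non-ZPA cells, so that only ZPA array 1+2 reached into the non-ZPA range. Without that array it passed as lower (-1.36, adjusted p = 0.0250), in a fit that called 1035 of 13341 genes as lower. The other tested probe set of Sdc2 did not pass (-0.08 ± 0.44, adjusted p = 0.948 over all probe sets). It had 884, 480 and 375 in ZPA cells and 288 to 986 in non-ZPA cells. Sdc3, the syndecan of nerve and muscle, was at -0.07 ± 0.35.

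Perlecan (Hspg2), a core protein of basement membranes, had 551, 688 and 682 in ZPA and 464 to 944 in non-ZPA cells, with a log2 fold change of -0.07 ± 0.34. Its second probe set was above the filter level on all 3 ZPA arrays, at 122, 79.1 and 229, and was at 5.5 to 27.6 in non-ZPA cells, under the filter level each time. It met the filter only through the ZPA arrays, with array 1+2 counted as 2 columns, and did not pass (adjusted p = 0.0839). Set against the filter level, it was at least 2.27-fold higher in ZPA cells. Of the 15 members for which several probe sets were tested, 7 had a single sign throughout and 8 had both signs.

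**Figure D3:**
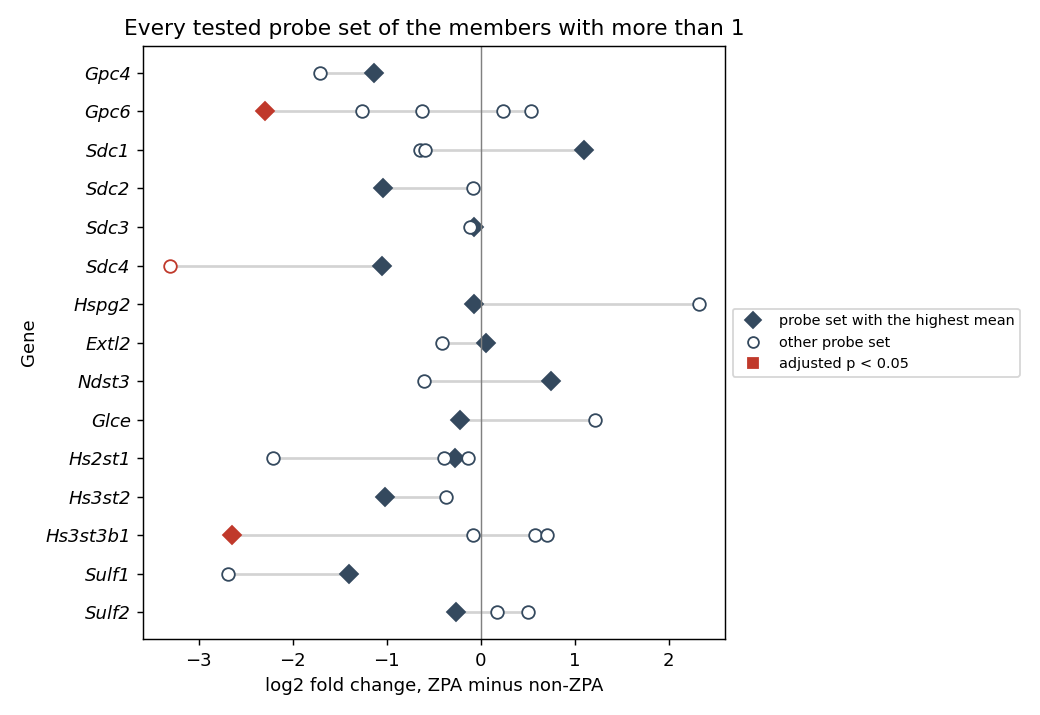
Log2 fold change, ZPA minus non-ZPA (x axis), of every tested probe set of the 15 members with more than 1 (y axis). Diamonds are the brightest probe set of each gene, and red marks an adjusted p under 0.05 over all probe sets, reached by Gpc6 (-2.29), Hs3st3b1 (-2.64) and the second probe set of Sdc4 (-3.31).

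The tested enzymes that polymerise the chain and make its common modifications did not pass the test over all 7 arrays. In run 1 alone, with its single ZPA array, the log2 fold changes were -2.06 for Ext2 and -1.88 for Extl3. Over all 7 arrays, Ext1 and Ext2, which together form the polymerase, had log2 fold changes of 0.56 ± 0.35 and -0.75 ± 0.43. Among the Extl genes, whose products take part in starting and extending chains, Extl1 was at 0.23, Extl2 at 0.06 and Extl3 at -0.39. Of the Ndst genes, which replace acetyl by sulfate groups and so open the chain to the later enzymes, Ndst2 was at 0.23 ± 0.40. Ndst1 was not among the genes assessed. Ndst3, at 0.75, and Ndst4, at 0.12, lay above the filter level on 3 and 4 of the 7 arrays, so that little can be read from them.

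Glce, which converts glucuronic to iduronic acid, was at -0.22 ± 0.34, and Hs2st1, which sulfates that iduronic acid, at -0.27 ± 0.29. The second tested probe set of Glce had the opposite sign and did not pass (1.21, adjusted p = 0.308 over all probe sets). With the median over probe sets Glce was at 0.50 (adjusted p = 0.528). Hs2st1 had 1990, 2275 and 1570 in ZPA cells and 1963, 2580, 2218 and 2591 in non-ZPA cells, a wide overlap. One of its 4 probe sets was under the filter level in every ZPA sample, with 19.4, 28.5 and 9.40, and at 85.9 to 182 in non-ZPA cells. It met the filter only through the non-ZPA arrays and did not pass (adjusted p = 0.0557 over all probe sets). Set against the filter level, it was at least 1.95-fold lower in ZPA cells on average over the arrays. Its lowest non-ZPA value, 85.9, lay under the level of ZPA array 1+2 (91.9). Of the 6-O-sulfotransferases, Hs6st1 was at -0.05 ± 0.46 and Hs6st2 at -0.04 ± 0.36, with Hs6st2 at 1952, 2851 and 1033 in ZPA and 1502 to 2084 in non-ZPA cells. Hs6st3 was not tested, with 98.7, 6.90 and 8.90 in ZPA cells and 7.70 to 12.1 in non-ZPA cells. A missed threshold at these standard errors does not show equal levels.

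The sulfatases Sulf1 and Sulf2 remove 6-O-sulfate from finished chains and thereby alter ligand binding. Sulf1 had 1174, 89.0 and 304 on ZPA arrays 1+2, 3 and 4 and 2188, 2556, 335 and 324 on non-ZPA arrays 1 to 4. The 3 high values were the 3 arrays of run 1, in both sorts. Between the groups Sulf1 was at -1.41 ± 0.86 (adjusted p = 0.405), and at -0.95 ± 0.39 when the run was a block (adjusted p = 0.191), a fit in which 4% of all genes passed. Within the runs it was at -1.0 and -0.91. The second probe set of Sulf1 had 420, 51.4 and 144 in ZPA cells and 3283, 3924, 391 and 245 in non-ZPA cells, and with the run as a block it passed as lower in ZPA cells (-2.21 ± 0.42, adjusted p = 0.0161 over all probe sets). Sulf2 was at -0.26 ± 0.33 by its brightest probe set, with 5119, 11076 and 13082 in ZPA and 10367 to 11634 in non-ZPA cells. Its 2 other probe sets had the opposite sign, at 0.50 and 0.17. For the one at 0.50 every ZPA value was above every non-ZPA value, but it did not pass (adjusted p = 0.398 over all probe sets).

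The runs were then compared with each other, with the sort in the model. Sulf1 was 2.75 ± 0.39 higher in run 1 on the log2 scale (adjusted p = 0.0176), and its second probe set 2.91 higher (adjusted p = 0.0160 over all probe sets, of which 0.162% passed). Sdc4 was 2.19 ± 0.35 higher in run 1 (adjusted p = 0.0287), but its second probe set was at 0.34 (adjusted p = 0.807). No other member passed this test, which called 21 of 13341 genes (0.157%), 16 of them higher in run 1. Tbx4 and Pitx1, transcription factors of the hindlimb chosen after their values were seen, also differed between the runs, by 3.64 ± 0.51 (adjusted p = 0.0176) and 4.05 ± 0.45 (adjusted p = 0.00506). Pitx1 had 996, 18.3 and 75.6 on the ZPA arrays and 1233, 926, 83.6 and 32.4 on the non-ZPA arrays, likewise highest on the 3 arrays of run 1. The forelimb factor Tbx5, chosen in the same way, did not pass this test (-0.76, adjusted p = 0.531). It had 639, 1459 and 3293 on the ZPA arrays and 952 to 1193 on the non-ZPA arrays. Whether the limbs taken differed between the runs was not tested.

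**Figure D4:**
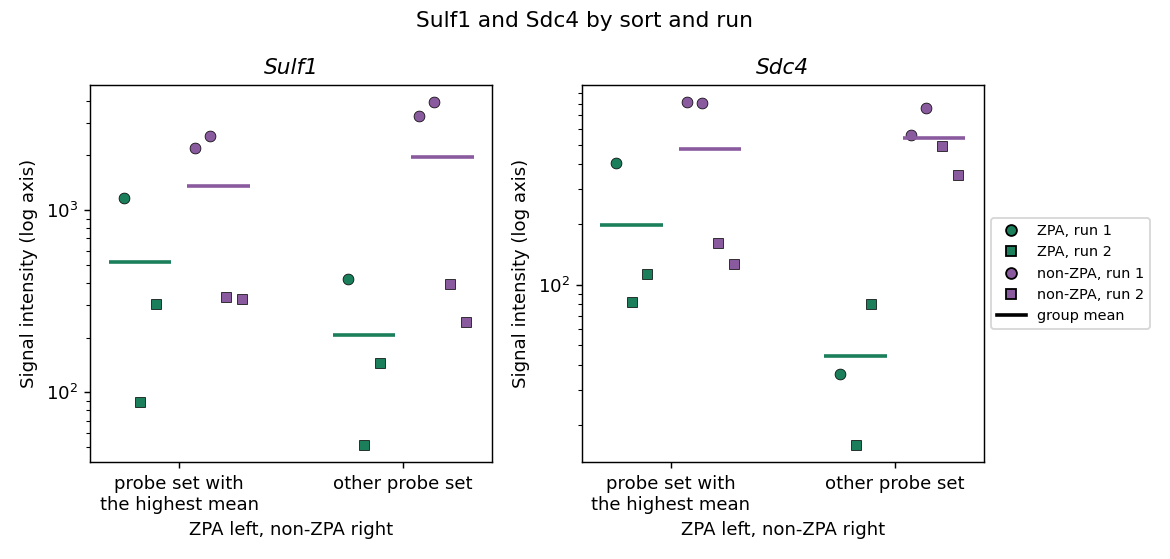
Signal intensity on each array (y axis, log scale) of both tested probe sets of Sulf1 (left panel) and Sdc4 (right panel), ZPA left and non-ZPA right in each pair, with circles for run 1, squares for run 2 and bars for group means. Both probe sets of Sulf1 were higher in run 1 (2.75 and 2.91 on the log2 scale), while for Sdc4 this held for the brightest one (2.19).

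The size of the ZPA difference was also compared between the runs. Of the 30 members, 0 passed the test of that difference by limma at an adjusted p under 0.05 (298 of 13341 genes, 2.23%, did), and 10 had an unadjusted p under 0.05, where 21.3% of all genes had. In 14 members the sign differed between the runs, but the share over all genes was not computed, so this count is a description only. Ext1 was one of these members: run 1 had 1194 in ZPA against 1539 and 1530 in non-ZPA cells, and run 2 had 1973 and 2601 in ZPA against 967 and 1019 in non-ZPA cells, a difference between the runs of 1.53 ± 0.47 (adjusted p = 0.108). Ext2 differed by 2.08 ± 0.57 (adjusted p = 0.0830) and Sulf2 by 1.36 ± 0.39 (adjusted p = 0.0932). Run 1 holds a single ZPA array, so these differences rest on it.

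Genes that supply or share the pathway were counted as well. Of 67 listed genes in 7 lists, 58 were tested, 3 fell and 0 rose by limma, and 7 lower and 5 higher genes had an unadjusted p under 0.05. The shares were 5.17% lower, against 2.02% of all genes, and 20.7% at an unadjusted p under 0.05, near the 19.3% of all genes. The enzymes of the linker that joins chain to core (5 tested, median log2 fold change 0.61), the suppliers of sulfate and sugar donors (10 tested, -0.32), the degrading enzymes (10 tested, 0.10) and the chondroitin and dermatan sulfate core proteins (10 tested, -0.47) held no gene past the test. Among 7 tested carriers of heparan sulfate outside the classic families (median -0.65), Tgfbr3, the betaglycan co-receptor for transforming growth factor beta, fell. It had 45.6, 395 and 328 on the ZPA arrays and 915, 1479, 1412 and 1195 on the non-ZPA arrays (-2.60 ± 0.56, adjusted p = 0.0328). The value of 45.6 lay under the filter level of ZPA array 1+2 (91.9), so the size of this fall is uncertain. Among 12 tested chondroitin and dermatan sulfate enzymes (median -0.39), Ust, a 2-O-sulfotransferase of those chains, fell (-1.83 ± 0.43, adjusted p = 0.0445). Ust had 163, 47.3 and 71.7 in ZPA and 288 to 439 in non-ZPA cells. On ZPA arrays 3 and 4 it lay under the filter level (50.8 and 82.2), so the size is not a measured one. In a list of 4 lipases and related phosphodiesterases (median -0.27), Gdpd1 fell (-2.65 ± 0.36, adjusted p = 0.00322), a gene known for lysophospholipid hydrolysis and not for release of glypicans.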

How the data were processed

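Gene expression was measured on Mouse430_2 arrays (type per the file headers) in 8 samples, 4 ZPA and 4 non-ZPA. Per the labels' protocols, biotinylated target came from 50 ng of total RNA by 2 rounds of amplification. The authors deposited linear signal intensity per probe set; the submitters' processing notes name GCOS 1.3, and its summary method is not given in the sources used here. Leaving out the lowest and highest 2% of values, the deposited columns all averaged 500. Columns of ZPA replicates 1 and 2 were averaged as 1 array. The experiment records, deposited as text with other fields and no expression score, gave array type and, for all but 1 sample, scan day.

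Values were used as log2(intensity + 16), a scale that understates changes of low genes. Control probe sets (64) were left out, and a probe set was tested above the 40th percentile of its array in at least 4 of the 8 columns: 27816 probe sets and 13341 genes. Platform annotation gave 1 symbol for 34945 probe sets, several for 932 and none for 9160. limma 3.58.1 in R 4.3.3 was used (lmFit, eBayes with trend, 2-sided, Benjamini-Hochberg over all genes). Members and lists were chosen with earlier results of these data known. All members may be named, as may up to 4 called genes of each other list and Shh. Cox10, Pitx1, Tbx4, Tbx5, the comparison of the runs with each other and the run block over all probe sets were added after the values were seen. Alternatives covered pseudocount, normalization, filter, probe set rule, run, replicate number, variance model, threshold and each array left out. On simulated data of this comparison with 13341 genes, the test recovered 48.4% of genes with a simulated log2 change of 2 and 3.4% of those with 1. No same-numbered arrays correlated above 0.1 in their deviations from the group means (-0.0196 for replicates 3, -0.00746 for replicates 4, and 0.00938 and 0.0784 for the shared array with non-ZPA replicates 1 and 2). The number of arrays limits precision.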

Additional observations from a re-analysis of the deposited data

Results flagged for a closer look

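In Sdc3, 1 non-ZPA array lay apart from the other 3. Non-ZPA array 4 had an intensity of 744.5 where the others had 1174 to 1252, and its gap to the nearest took up 0.877 of the group's range on the log2 scale, above Dixon's 95% critical value. Of the 32 members, Sdc3 alone met this criterion, which chance meets in about 1 of 20 groups.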

How the results depend on the processing

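The 4 genes that fell, Gpc3, Gpc6, Hs3st3a1 and Hs3st3b1, were also the 4 called with other pseudocounts, quantile normalization, median centring, each filter, all probe sets tested and run 2 alone. They were likewise the 4 called with the run as a block and in both fits with a replicate block (4 and 4 lower, 0 higher), so the replicate block changed no member's call. Run 1 alone, where the single ZPA array is taken to vary as the non-ZPA ones do, gave 10 lower members, the 4 and Ext2, Extl3, Gpc4, Hs3st6, Sulf1 and Sulf2. Array weights added Sdc1 as higher (1 member) and Gpc4 and Hs3st2 as lower (6 lower in all). Leaving out 1 array gave 3 to 6 lower and 0 to 1 higher members, the 1 being Sdc1 without ZPA array 1+2. With the median over probe sets, Hs3st3b1 turned to 0.23 and Gpc6 lost its call, while Sdc4 passed (-2.18, adjusted p = 0.0499). Without an intensity trend Gpc3 lost its call (adjusted p = 0.0689). Of the other 26 tested members, 20 changed sign in at least 1 alternative without a call.

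Over all genes, 57 rose and 269 fell. The counts moved to 114 and 420 with the run as a block, 1244 and 1983 in run 1 alone, 122 higher in run 2 alone, 128 and 475 with a replicate block that pairs the shared array with replicate 2, 31 and 144 without a trend, 384 and 849 with array weights, 214 and 611 at an adjusted p under 0.1, 262 and 628 with ZPA replicates 1 and 2 separate, and 170 lower with the median of probe sets. With the shared array as replicate 1 the replicate block gave 49 and 237. Leaving out 1 array gave 11 to 690 higher and 90 to 1035 lower genes, the highest counts without ZPA array 1+2. The causes were not tested. A value under the filter level carries no measure of background.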
